A study of Mus musculus with 15 samples.

Results

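Ly6Chigh CD11c+ MHC-II+ cells sorted from SULT2B1b-LLC tumours were compared with the same gate from Mock-LLC tumours. LLC is the Lewis lung carcinoma line of mouse, and the tumours had been established for 10 days when they were taken. SULT2B1b-LLC cells carry the enzyme SULT2B1b, which sulfates cholesterol and oxysterols, and Mock-LLC cells are their control. The 8 libraries of this gate, 4 per tumour type, were chosen by their labels from 15 in all. The other 7 hold Ly6Clow cells of the same tumours, 3 of SULT2B1b-LLC and 4 of Mock-LLC. How SULT2B1b was introduced, whether either line is 1 clone, and the strain, age and sex of the host mice are not stated by the labels. The labels number the tumours but do not say that each came from its own mouse, so p-values speak of the spread among these samples, which may be technical.

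Ly6Chigh cells of a tumour descend largely from blood monocytes that enter through the chemokine receptor CCR2 and then take on macrophage or dendritic cell features; CD11c and MHC class II mark those that have started to do so. Interferon-gamma acts on such cells in part through the transcription factor IRF1 and induces chemokines of the CXCR3 receptor, GTPases that guard the cell, and the machinery of antigen presentation. Oxysterols act on the same cells as ligands of LXR, a nuclear receptor that switches on genes of cholesterol efflux and lipid transport, and they also restrain the sterol synthesis programme. The comparison asks how the transcriptome of these cells differs where the tumour cells make an oxysterol-sulfating enzyme.

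The 4 SULT2B1b-LLC (SULT2B1b) libraries held 2617878, 8782522, 7627616 and 9865185 counts, and the 4 Mock-LLC (Mock) libraries 9052051, 7763032, 9683685 and 10626954. SULT2B1b replicate 1 stood apart from the rest. It was the shallowest, yet 24540 genes had a count in it, against 13123 to 17737 in the other 7, and 9.84% of its counts fell on gene models without a name (Gm or Rik symbols), against 1.27% to 1.77%. The gene model Gm10800 alone reached 52090 CPM (counts scaled to TMM-adjusted library size) there and at most 202 CPM in the other 7 libraries. Results are therefore given with it and, where they differ, without it. The gate genes were present in all 8 libraries: the Ly6C gene Ly6c2 ran from 1312 to 2215 CPM in SULT2B1b and from 981 to 1845 CPM in Mock libraries, the monocyte receptor gene Ccr2 from 2070 to 2711 and from 1997 to 2938 CPM, and the class II gene H2-Ab1 from 7056 to 12100 and from 5043 to 8728 CPM, all in that order. Itgax, which encodes CD11c, ran from 70.4 to 157 CPM in SULT2B1b and from 104 to 231 CPM in Mock libraries. The other Ly6C gene, Ly6c1, was far lower than Ly6c2, its close copy, with which it may share reads. It ran from 13.1 to 35.7 CPM in SULT2B1b and from 0.951 to 3.86 CPM in Mock libraries. Its groups did not overlap, but the difference did not pass (log2 2.83, edgeR, adjusted p = 0.209).

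Sult2b1 itself (chromosome 7, 45729983 to 45784669, GRCm38) was counted in the sorted cells at 10.3, 9.50, 10.8 and 19.2 CPM in the SULT2B1b libraries and at 0, 0, 0.198 and 0.454 CPM in the Mock libraries. The groups did not overlap, but the difference did not pass the test used here (edgeR, adjusted p = 0.138). Krt8, a keratin gene of epithelial cells, was likewise counted in all 4 SULT2B1b libraries, at 0.795, 5.98, 3.79 and 10.1 CPM, and in none of the Mock libraries. A floor of 3 counts over the Mock group makes that at least 79-fold higher in SULT2B1b libraries, a bound that covers counting error only. Krt8 was filtered out before the test used here, and SULT2B1b replicate 1 held 2 counts of it. The summed level of 10 epithelial and carcinoma markers, Krt8 among them, ran from 46.4 to 93.3 CPM in SULT2B1b and from 40.2 to 86.2 CPM in Mock libraries, and overlapped. Most of that sum was Cdh1, which overlapped, as did Krt18. Epcam went the other way, with a mean of 0.152 CPM in SULT2B1b and 1.10 CPM in Mock libraries, also with overlap. Cldn4 and Sftpc were at 0 in all 8 libraries. Whether the Sult2b1 reads came from the sorted cells or from tumour cells was not tested, and the labels do not say whether the SULT2B1b of the tumour cells is the mouse or the human gene. The Mock counts of Sult2b1 are 7 in all, so its fitted fold change is not given.

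Of 11655 genes tested, 3 (0.0257%) rose in SULT2B1b tumours: Cxcl9, C1qa and Ly6a, each with an adjusted p of 0.0352 (edgeR quasi-likelihood test on the 8 libraries). Cxcl9 encodes a chemokine that draws T cells through CXCR3, C1qa a subunit of complement C1q, and Ly6a the surface protein Sca-1, which interferons induce. No gene fell in this test. The unadjusted p was under 0.05 for 870 genes (7.46%), of which 406 were higher and 464 lower in SULT2B1b. In bulk samples fewer cells of a type and less RNA per cell cannot be told apart, and this holds for every difference given here.

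Cxcl9 (chromosome 5, 92321347 to 92328079) stood at 138, 247, 289 and 290.5 CPM in the SULT2B1b libraries, against 59.4, 41.9, 27.1 and 47.0 CPM in the Mock libraries. The lowest SULT2B1b value, that of replicate 1, lay above every Mock value. The fitted change was 5.51-fold (log2 2.46, SE 0.30), and without SULT2B1b replicate 1 it was the 1 gene of 12052 tested that passed (0.0083%; log2 2.66, adjusted p = 0.0361).

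C1qa (chromosome 4, 136895917 to 136898803) stood at 1025, 1302, 1214 and 1008 CPM in the SULT2B1b libraries, against 533, 567, 524 and 538 CPM in the Mock libraries. The 4 Mock libraries lay close together, and every SULT2B1b library was above them. Its log2 fold change was 1.07 (SE 0.13), with an adjusted p of 0.0522 without SULT2B1b replicate 1. Ly6a (chromosome 15, 74994877 to 74998031) stood at 890, 1193, 1020 and 943 CPM in the SULT2B1b libraries, against 398, 423, 256 and 411 CPM in the Mock libraries. Mock replicate 3 was the lowest of the 8, and the groups did not overlap. The log2 fold change of Ly6a was 1.44 (SE 0.18), with an adjusted p of 0.0856 without SULT2B1b replicate 1. With any of the other 7 libraries left out, none of the 3 genes passed, and their adjusted p reached up to 0.209.

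**Figure D1:**
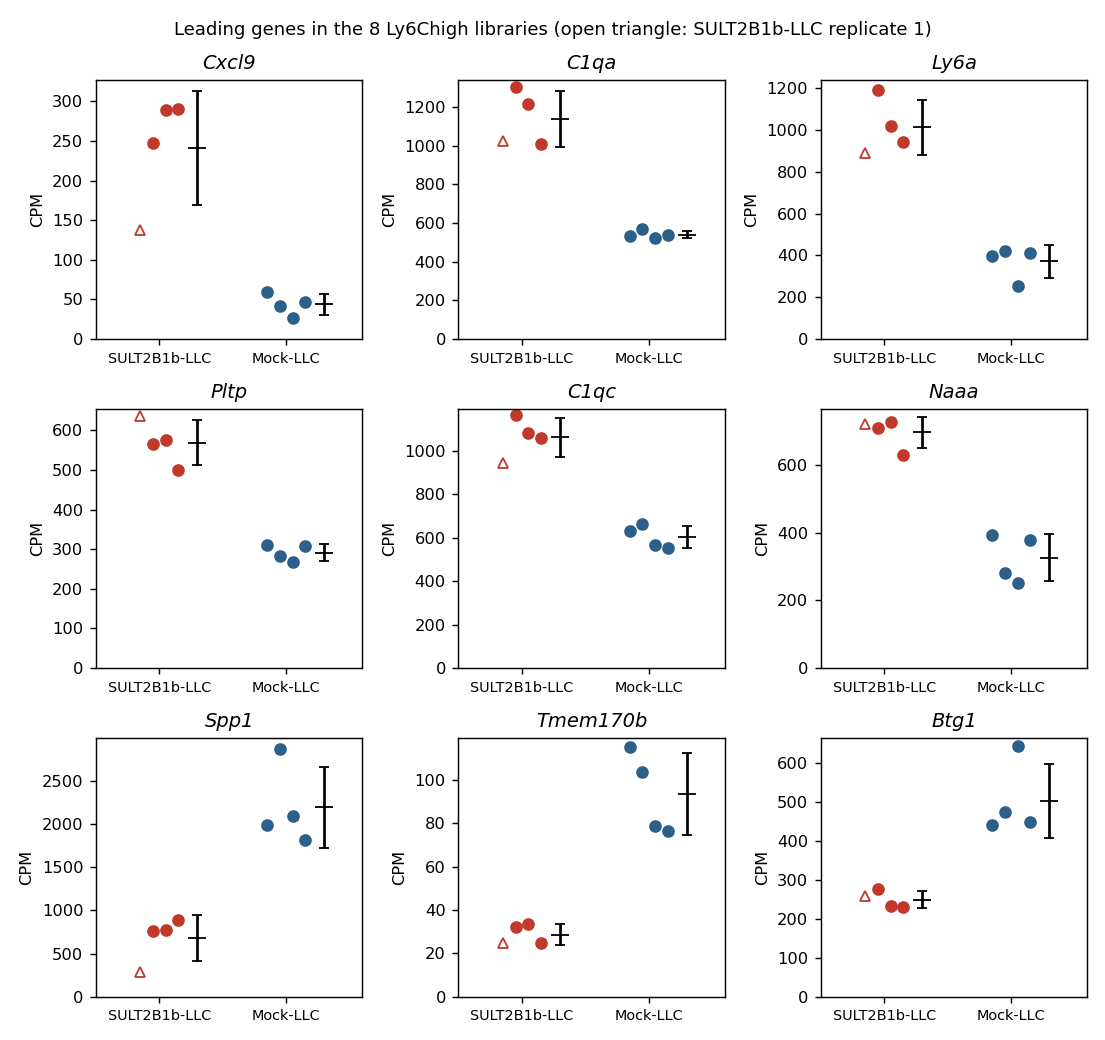
Level in CPM (vertical axes, from 0) of 9 genes in each of the 8 Ly6Chigh libraries, SULT2B1b-LLC left and Mock-LLC right, 1 point per library, with the mean and SD of each group as a bar; the open triangle is SULT2B1b-LLC replicate 1. In all 9 genes the groups do not overlap, and Cxcl9, C1qa and Ly6a are the 3 that passed the test.

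The number of genes that passed depended on the model, and other genes are described by 2 further rules. The first is that the groups do not overlap, so that all 4 SULT2B1b libraries lie above, or all below, all 4 Mock libraries. It held for 393 genes higher (3.37%) and 336 genes lower (2.88%) in SULT2B1b, and without SULT2B1b replicate 1 for 723 (6.2%) and 599 (5.14%). The second is a fit of all 15 libraries, in which the Ly6Clow libraries share in the estimate of the spread (a biological coefficient of variation of 0.611, against 0.694 for the 8 libraries). There 223 of 13800 genes passed (1.62%), 123 higher (0.891%) and 100 lower (0.725%) in SULT2B1b. Of those 223, 194 were also tested in the fit of the 8 libraries, and all 194 had the same direction and an unadjusted p under 0.05 there, while 3 passed. The 15-library fit reads the same 8 libraries, so it is no separate evidence. Its spread is partly that of the Ly6Clow libraries, whose replicates agreed more. Its adjusted p-values may therefore be too small for the Ly6Chigh comparison, wherever they are given below. It also has no term for the tumours that gave both populations. The median log2 fold change of all 11655 genes, against which the gene lists can be read, was 0.02.

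**Figure D2:**
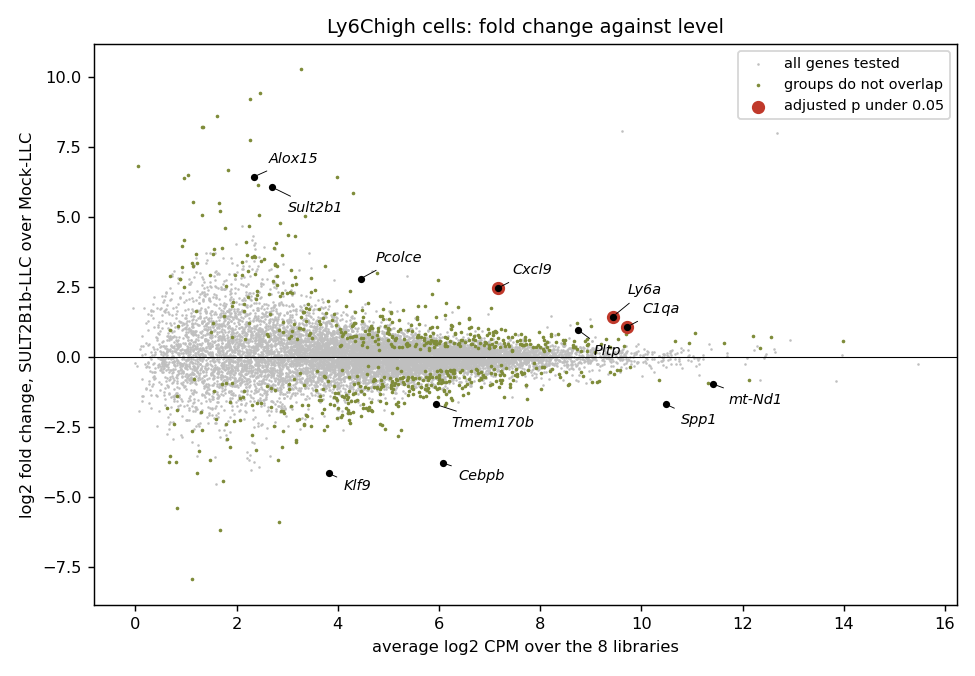
Average log2 CPM over the 8 libraries (horizontal) against the log2 fold change of SULT2B1b-LLC over Mock-LLC (vertical) for the 11655 genes tested. Red points passed the test, green points are genes whose groups do not overlap, and black points carry names; the 2 grey points near 8 on the vertical axis are Gm10800 and Gm10801, which are high in SULT2B1b-LLC replicate 1.

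Complement C1q was higher in SULT2B1b tumours in all 3 of its chains. C1q is the recognition molecule of the classical complement pathway and is made by macrophages. C1qc had 945, 1164, 1082 and 1061 CPM in SULT2B1b libraries, against 630, 664, 567 and 554 CPM in Mock libraries (log2 0.82, SE 0.12, adjusted p = 0.0770). C1qb had 2229, 3391, 2713 and 2673 CPM in SULT2B1b libraries, against 1320, 1550, 1709 and 1471 CPM in Mock libraries (log2 0.86, SE 0.15, adjusted p = 0.112). Neither passed here, and both passed in the 15-library fit (adjusted p = 0.00635 for C1qc and 0.00369 for C1qb). Of 15 complement genes tested, 5 had no overlap with the SULT2B1b libraries above (33.3% against 3.37% of all genes) and 0 with them below, the other 2 being factor B, Cfb, with 20.5 to 23.4 CPM in SULT2B1b and 6.66 to 14.4 CPM in Mock libraries, and C4b, with 27.3 to 39.7 and 5.93 to 23.2 CPM in the same order. The median log2 fold change of the list was 0.67, and 0.36 without SULT2B1b replicate 2, and 5 of its 15 members were negative, among them the complement receptor chains Itgam (-0.16) and Itgax (-0.50).

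C1q genes also mark macrophages. The summed level of 12 macrophage markers ran from 13150 to 18160 CPM in SULT2B1b and from 11240 to 13580 CPM in Mock libraries. Of the 12, 5 did not overlap, with SULT2B1b above, against 3.37% of all genes. They were the 3 C1q genes, Adgre1 (493 to 674 against 309 to 453 CPM, log2 0.65, adjusted p = 0.209) and Trem2 (227 to 285 against 174 to 220 CPM). Apoe, the most abundant of the list, overlapped (5338 to 8028 and 4900 to 6626 CPM), as did Cd68, Fcgr1 and Mertk. In Ly6Clow cells C1qa stood at 2479 to 2634 CPM in SULT2B1b and 1467 to 1981 CPM in Mock tumours, above its level in any Ly6Chigh library. The part of macrophage content in the C1q difference was not tested.

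Of the 20 gene lists, interferon-gamma-inducible genes had the highest median, a log2 fold change of 0.81 over 32 genes tested, and of 0.72 without SULT2B1b replicate 1. Of the 32, 30 were positive. The groups did not overlap for 14 with SULT2B1b above and for 0 with SULT2B1b below, 43.8% of the list against 3.37% of all genes. Cxcl9 rose, and no other member passed in the fit of the 8 libraries; 7 passed in the 15-library fit, all higher, among them Cxcl9, Iigp1, Fcgr4, Igtp, Irf1 and Ifi47, the last not without SULT2B1b replicate 1 (adjusted p = 0.0544). These genes were known from earlier results of these data to be higher in SULT2B1b tumours, so the list is no independent evidence of its direction.

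Interferons act through a pair of known promoter elements, searched here in the promoters of the list. They are the gamma-activated site (GAS), TTCNNNGAA, and the interferon-stimulated response element, which IRF1 binds, searched here as GAAA, any 2 bases and GAAA. Both were searched on both strands in the 300 bases around the start that RefSeq gives on GRCm38.p6, and capitals mark the matches. Shown as examples are 3 of the genes with a GAS, 1 with the response element alone, and Cxcl9, which rose.
Irf1, chr11:53769764-53770063, plus strand: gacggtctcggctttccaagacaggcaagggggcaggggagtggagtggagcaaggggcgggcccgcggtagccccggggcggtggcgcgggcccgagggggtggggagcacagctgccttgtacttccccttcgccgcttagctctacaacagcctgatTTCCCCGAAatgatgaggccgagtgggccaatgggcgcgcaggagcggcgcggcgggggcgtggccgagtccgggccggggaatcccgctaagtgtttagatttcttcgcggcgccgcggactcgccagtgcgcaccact
Igtp, chr11:58199306-58199605, plus strand: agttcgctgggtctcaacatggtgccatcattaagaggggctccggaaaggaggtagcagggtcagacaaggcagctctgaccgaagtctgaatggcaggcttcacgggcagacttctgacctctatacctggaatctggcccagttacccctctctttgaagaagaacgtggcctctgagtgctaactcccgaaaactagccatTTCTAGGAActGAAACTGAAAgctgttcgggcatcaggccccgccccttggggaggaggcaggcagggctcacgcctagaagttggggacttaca
Tgtp2, chr11:49064163-49064462, minus strand: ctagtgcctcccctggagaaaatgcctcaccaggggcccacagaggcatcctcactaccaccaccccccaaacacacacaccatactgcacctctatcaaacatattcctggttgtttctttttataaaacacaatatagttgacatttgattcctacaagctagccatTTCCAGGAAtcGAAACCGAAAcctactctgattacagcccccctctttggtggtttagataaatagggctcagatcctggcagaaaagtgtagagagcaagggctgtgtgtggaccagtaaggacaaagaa
Fcgr4, chr1:171018676-171018975, plus strand: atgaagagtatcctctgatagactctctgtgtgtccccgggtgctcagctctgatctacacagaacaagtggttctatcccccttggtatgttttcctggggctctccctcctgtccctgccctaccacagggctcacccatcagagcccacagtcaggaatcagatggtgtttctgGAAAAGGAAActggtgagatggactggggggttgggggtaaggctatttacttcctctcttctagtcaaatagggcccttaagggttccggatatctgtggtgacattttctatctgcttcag
Cxcl9, chr5:92328030-92328329, minus strand: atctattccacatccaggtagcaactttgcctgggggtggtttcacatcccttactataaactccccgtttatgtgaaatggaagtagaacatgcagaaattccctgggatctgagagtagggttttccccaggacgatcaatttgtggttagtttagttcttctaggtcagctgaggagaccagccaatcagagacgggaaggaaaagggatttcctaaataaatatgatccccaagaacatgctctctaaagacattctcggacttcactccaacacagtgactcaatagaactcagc
The GAS of Irf1 begins 90 bases before the start. In Igtp and in Tgtp2 a GAS and a response element stand side by side without overlap, beginning 45 and 34 bases before the start in Igtp and 81 and 70 bases before it in Tgtp2. In Fcgr4 the response element begins 73 bases before the start. These letters are not in the Cxcl9 window. Of the list, 22 genes had a promoter in the table, and 9 of them (40.9%) held a GAS and 13 (59.1%) a response element, against 710 (8.31%) and 360 (4.21%) of the 8549 tested genes with a promoter. Of 23 type I interferon-stimulated genes, a list described below, 4 (17.4%) held a GAS and 13 (56.5%) a response element. The share with a response element is therefore not particular to the interferon-gamma list. A match is a description of the letters and not a site shown to be bound.

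Irf1, a transcription factor of the pathway, stood at 292, 357, 304 and 352 CPM in SULT2B1b libraries, against 172, 133, 126 and 266.5 CPM in Mock libraries (log2 0.91, adjusted p = 0.243). Mock replicate 4 came nearest to the SULT2B1b range. Upstream of it, the receptor chains Ifngr1 (log2 0.09) and Ifngr2 (-0.24) and the kinase Jak2 (-0.76, adjusted p = 0.659) showed no difference past the test, and Irf8 was at log2 0.12.

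GTPases made up 9 of the 14 members that did not overlap, but they are also a large part of the list, so this count does not single them out. Iigp1 (chromosome 18, 60376027 to 60392634), an immunity-related GTPase that attacks the vacuoles of intracellular pathogens, stood at 69.9, 162, 98.1 and 116 CPM in SULT2B1b libraries, against 38.3, 40.4, 20.9 and 16.3 CPM in Mock libraries (log2 1.95, SE 0.36, adjusted p = 0.112). Its lowest SULT2B1b library was replicate 1, still above all Mock libraries. Igtp, of the same family, stood at 253, 157, 188 and 126 CPM in SULT2B1b libraries, against 76.8, 80.1, 99.2 and 118 CPM in Mock libraries (log2 0.95, adjusted p = 0.222). Ifi47, Irgm1, Tgtp1 and Tgtp2 did not overlap either, with log2 fold changes of 0.82, 0.60, 0.95 and 0.49. Tgtp1 and Tgtp2 are near-identical copies, so how their reads were divided is uncertain. Guanylate-binding proteins ran from log2 0.30 for Gbp7 to 1.62 for Gbp2b over the 9 on the list, with Gbp3, Gbp4 and Gbp8 not overlapping; this family too holds close copies.

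The other ligands of the Cxcl9 receptor had smaller differences. Cxcl10 stood at 383, 456, 445 and 323 CPM in SULT2B1b libraries, against 387, 364, 136 and 237 CPM in Mock libraries, which overlap (log2 0.52, adjusted p = 0.818). For Cxcl11 the log2 fold change was 1.27, with overlap. Of 24 CC and CXC chemokines tested, the groups did not overlap for 2 with SULT2B1b above, Cxcl9 and Ccl8 (8.33% against 3.37% of all genes), and for 1 with SULT2B1b below, Cxcl14 (4.17% against 2.88%). Ccl8, a ligand of monocyte receptors, stood at 152, 187, 62.2 and 37.95 CPM in SULT2B1b libraries, against 7.62, 16.45, 3.66 and 36.9 CPM in Mock libraries (log2 2.76, SE 0.72, adjusted p = 0.246), so that SULT2B1b replicate 4 and Mock replicate 4 lay close together. Cxcl14 had 3.58 to 14.8 CPM in SULT2B1b and 26.0 to 34.3 CPM in Mock libraries. The chemokine list had a median of 0.37, which was -0.06 without SULT2B1b replicate 2 and 0.23 without Mock replicate 1.

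Type I interferon-stimulated genes differed less. Of 30 tested, 0 passed in either edgeR fit (2 at an unadjusted p under 0.05). The median log2 fold change was 0.12, from 0.07 without Mock replicate 2 to 0.21 without SULT2B1b replicate 4. The groups did not overlap for 2, both with SULT2B1b above (6.67% of the list against 3.37% of all genes). The 2 were Zbp1, a sensor of nucleic acids in the Z form, with 263 to 363 CPM in SULT2B1b and 178 to 254.5 CPM in Mock libraries, and the membrane protein gene Bst2, with 266 to 331 and 213 to 265 CPM. The genes most used as markers of type I interferon lay near no difference: Ifit1 at log2 0.26, Isg15 at 0.17, Mx1 at 0.06, Irf7 at 0.05 and Rsad2 at -0.24. Several genes answer to both kinds of interferon, and the difference between the lists was not tested.

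**Figure D3:**
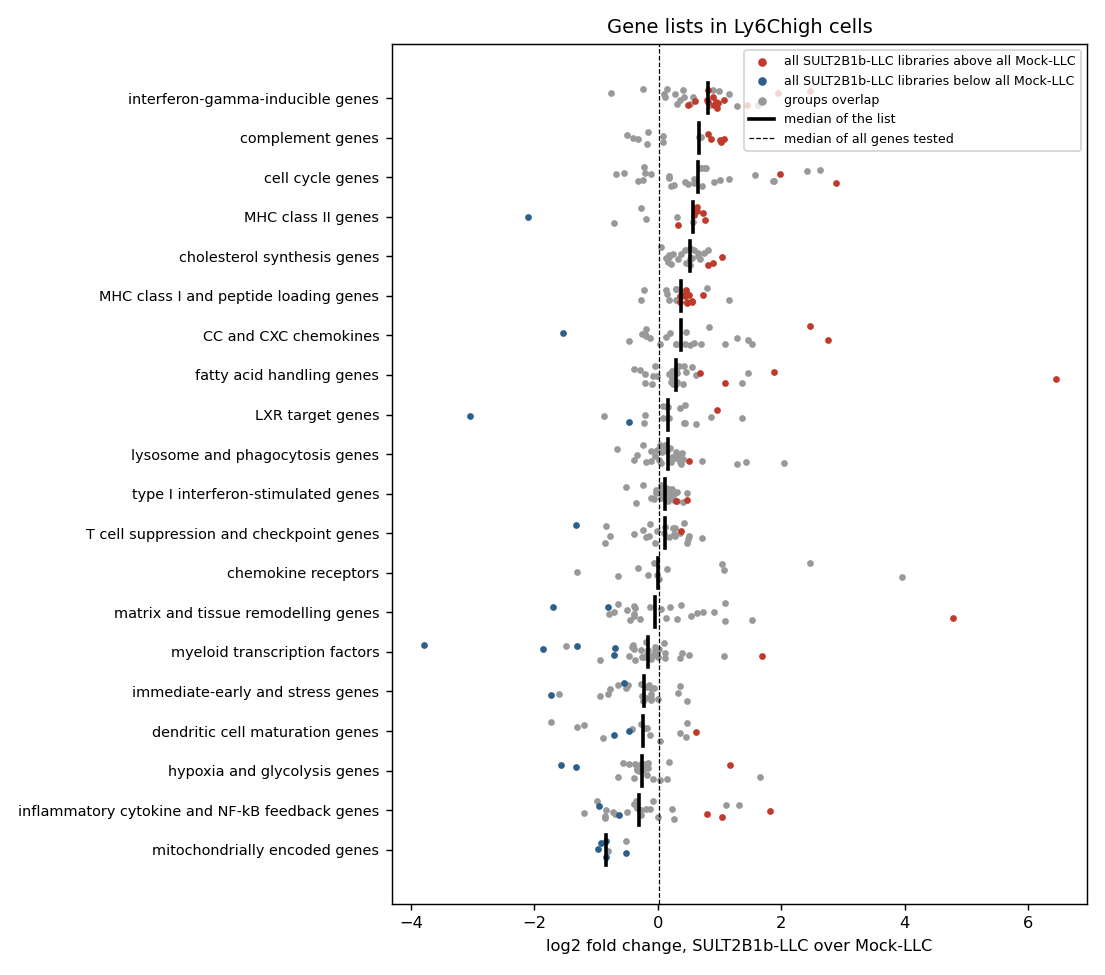
Log2 fold change of SULT2B1b-LLC over Mock-LLC (horizontal) for the tested members of 20 gene lists (rows), ordered by median, 1 point per gene. Red and blue points are genes whose groups do not overlap, with SULT2B1b-LLC above and below; black bars are list medians, from -0.84 for mitochondrially encoded genes to 0.81 for interferon-gamma-inducible genes, and the dashed line is the median of all genes tested.

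MHC class I and peptide loading genes had small differences, 21 of 23 of them positive. Of the 23 genes tested, 12 overlapped, 11 did not overlap with SULT2B1b above (47.8% against 3.37% of all genes) and 0 with SULT2B1b below. In the edgeR fit of the 8 libraries 0 passed (12 at an unadjusted p under 0.05), and the median log2 fold change was 0.38. Psmb9, a catalytic subunit of the immunoproteasome, which cuts proteins into peptides for class I, stood at 190, 202, 217 and 210 CPM in SULT2B1b libraries, against 127, 133, 119 and 116 CPM in Mock libraries (log2 0.72, SE 0.14, adjusted p = 0.112). The gap between the groups was wider than the range within either. Psmb8 and Psmb10, the other immunoproteasome subunits, and Psme1 and Psme2, which form the proteasome activator, did not overlap either, at log2 0.36, 0.44, 0.51 and 0.55. The peptide transporter genes Tap1 and Tap2 and the loading factors Tapbp and Tapbpl had log2 fold changes of 0.36, 0.45, 0.48 and 0.56, without overlap, as did the nonclassical heavy chains H2-T23 and H2-M3 at 0.48 and 0.45. In the 15-library fit Psmb9, Psme2, Psme1 and Tapbp passed, Tapbp not without SULT2B1b replicate 1 (adjusted p = 0.0535). The classical heavy chains overlapped, H2-K1 at log2 0.15 and H2-D1 at 0.12, with B2m at 0.30. Class I heavy chains are a family of close copies, so their counts are less certain.

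Of 13 MHC class II genes tested, 6 did not overlap with SULT2B1b above (46.2% against 3.37% of all genes) and 1 with SULT2B1b below (7.69% against 2.88%). The median log2 fold change was 0.58, and 0.38 without SULT2B1b replicate 3. H2-Aa (chromosome 17, 34282744 to 34287823) stood at 5965, 8572, 7060 and 8534 CPM in SULT2B1b libraries, against 4394, 4529, 5301 and 4009 CPM in Mock libraries (log2 0.72, SE 0.15, adjusted p = 0.138). H2-Eb1 stood at 4517, 6921, 5841 and 6538 CPM in SULT2B1b libraries, against 3430, 3111, 4302 and 3138 CPM in Mock libraries (log2 0.77, SE 0.17, adjusted p = 0.138). In both genes SULT2B1b replicate 1 was the lowest of its group and came nearest to Mock replicate 3. The peptide exchange factors H2-DMa and H2-DMb1 (log2 0.64 each), the invariant chain Cd74 (0.58) and the protease Ctss (0.33) are the other members that did not overlap with SULT2B1b above. H2-Ab1, at log2 0.60, and the class II transactivator Ciita, at 0.58, overlapped. H2-Oa, a subunit that holds DM in check, went the other way, with 1.99, 4.81, 1.18 and 7.21 CPM in SULT2B1b libraries, against 19.2, 8.56, 26.8 and 11.7 CPM in Mock libraries (log2 -2.10, adjusted p = 0.505). No member passed in the edgeR fit of the 8 libraries (8 at an unadjusted p under 0.05), and 4 passed in the 15-library fit, all higher. MHC class II was also used for the sort in both groups, which fixes that cells carry it and not how much.

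Of the LXR, sterol and fatty acid genes none passed in the edgeR fit of the 8 libraries, where 5, 3 and 5 of them had an unadjusted p under 0.05. Pltp, a phospholipid transfer protein of lipoproteins and an LXR target, came closest. It stood at 636.5, 566, 575 and 499 CPM in SULT2B1b libraries, against 311, 282, 267 and 307 CPM in Mock libraries (log2 0.96, SE 0.13, adjusted p = 0.0516). The lowest SULT2B1b library lay well above the highest Mock library. Of the 18 LXR targets tested 13 were positive, and Lpl, a lipase, had the largest positive difference at log2 1.36, with overlap (adjusted p = 0.560). The cholesterol efflux pump Abca1 was at log2 -0.88 (54.8 to 166 CPM in SULT2B1b and 123 to 202 CPM in Mock libraries, adjusted p = 0.603), Abcg1 at -0.21, Apoe at 0.17 and Srebf1 at 0.18. The receptor gene Nr1h3, which encodes LXR alpha, had 31.8 to 63.7 CPM in SULT2B1b and 18.5 to 37.5 CPM in Mock libraries, while Nr1h2, for LXR beta, had 58.4 to 104 and 107 to 143 CPM in that order, without overlap. Mlxipl, a sugar-responsive factor of fat synthesis, had 3.18, 1.06, 1.18 and 2.20 CPM in SULT2B1b libraries, against 7.62, 21.9, 9.88 and 22.4 CPM in Mock libraries (log2 -3.04, SE 0.77, adjusted p = 0.224). Over the 18 LXR targets tested the median was 0.17.

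Sterol synthesis genes leaned to one side. All 24 tested had a positive log2 fold change, from 0.05 for Srebf2 to 1.04 for Nsdhl, with a median of 0.51, and 3 did not overlap (12.5% against 3.37% of all genes). Without SULT2B1b replicate 1, 6 did not overlap, and the median was 0.39. Without SULT2B1b replicate 3, SULT2B1b replicate 4 or Mock replicate 2, each left out alone, 22 were positive and 2 negative. Msmo1, a demethylase of the late steps, stood at 166.5, 174, 194 and 186 CPM in SULT2B1b libraries, against 109, 98.5, 95.0 and 84.8 CPM in Mock libraries (log2 0.90, SE 0.15, adjusted p = 0.112). Nsdhl, which acts with it, had 32.0 to 43.5 CPM in SULT2B1b and 13.9 to 23.2 CPM in Mock libraries. The third was Idi1, of the isoprenoid steps, with 10.3 to 16.7 and 6.66 to 8.90 CPM. Msmo1 and Nsdhl passed in the 15-library fit.

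In fatty acid handling 4 of 30 genes did not overlap, all with SULT2B1b above (13.3% against 3.37% of all genes). Alox15, a lipoxygenase that oxidises polyunsaturated fatty acids, had 13.9, 7.28, 11.8 and 6.17 CPM in SULT2B1b libraries, against 0, 0, 0 and 0.363 CPM in Mock libraries (adjusted p = 0.201). It was low in every library, and the Mock group holds 4 counts in all, so its fitted fold change depends on the prior count. Eosinophils and resident macrophages also express Alox15. Of the 9 eosinophil markers, which include it, the summed level ran from 33.6 to 80.3 CPM in SULT2B1b and from 3.76 to 56.7 CPM in Mock libraries, with Epx at 0 in all 8 and Siglecf at 0 in 2 SULT2B1b and 3 Mock libraries. In Ly6Clow cells Alox15 stood at 359 to 439 CPM in SULT2B1b and 227 to 308 CPM in Mock tumours, and the share of such cells in the gate was not tested. The other 3 were Acaca, which makes malonyl-CoA (8.89 to 21.1 against 2.35 to 7.02 CPM), Fabp5, which carries fatty acids (50.7 to 113 against 24.3 to 45.2 CPM), and Acadl, of beta-oxidation (73.3 to 92.1 against 49.0 to 61.1 CPM).

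Further genes were among the 12 of smallest p with SULT2B1b above. Naaa, a lysosomal amidase that dendritic cells express strongly, stood at 721, 709, 729 and 629 CPM in SULT2B1b libraries, against 393, 282, 252 and 378 CPM in Mock libraries (log2 1.10, SE 0.17, adjusted p = 0.0770). It was the most abundant of the dendritic cell markers in every library. The microsomal glutathione transferase Mgst1 stood at 63.7 to 83.8 CPM in SULT2B1b and 15.7 to 29.5 CPM in Mock libraries (log2 1.84, adjusted p = 0.0770). G6pdx, the first enzyme of the pentose phosphate pathway, stood at 163 to 200.5 CPM in SULT2B1b and 90.2 to 104.5 CPM in Mock libraries (log2 0.89, adjusted p = 0.108). Pcolce, an enhancer of procollagen processing, and Olfml3, a secreted olfactomedin-like protein, were at log2 2.80 and 2.25 (adjusted p = 0.0770 and 0.108). Pcolce had 22.2, 57.7, 34.5 and 36.6 CPM in SULT2B1b libraries, against 6.27, 7.07, 3.76 and 4.63 CPM in Mock libraries.

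Markers of stromal cells lay beside those last 2 genes. The summed level of 11 fibroblast markers ran from 739 to 1701 CPM in SULT2B1b and from 146.5 to 755 CPM in Mock libraries. Col3a1 was the most abundant of them in every library, and Dcn (147 to 285 against 23.9 to 113 CPM) and Pdgfra (6.01 to 18.1 against 0 to 0.272 CPM) did not overlap. In Ly6Clow cells Olfml3 stood at 212 to 223 CPM in SULT2B1b and 66.6 to 77.2 CPM in Mock tumours. Pcolce stood there at 4.09 to 7.88 and 1.3 to 5.33 CPM in the same order. The part of fibroblasts in the Pcolce and Olfml3 differences was not tested. Dendritic cell markers summed to 1077 to 1130 CPM in SULT2B1b and 539 to 751 CPM in Mock libraries, and of 11 only Naaa did not overlap, while Flt3, Zbtb46, Xcr1 and Clec9a overlapped. B cell markers summed to 107 to 161 and 60.6 to 72.2 CPM, carried by Ighm, with Pax5 counted in SULT2B1b replicate 1 alone. Mast cell and basophil markers summed to 13.96 to 48.1 CPM in SULT2B1b and 0 to 12.8 CPM in Mock libraries, with Fcer1a at 0 in all 8. None of them separated the groups by itself, and Ms4a2 was counted in SULT2B1b replicate 1 alone (14.3 CPM). Neutrophil markers summed to 153 to 214 CPM in SULT2B1b and 182.5 to 290 CPM in Mock libraries, and T cell markers to at most 23.4 and 8.30 CPM. The 11 monocyte markers overlapped in sum, at 6596 to 7785 and 5231 to 7930 CPM.

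**Figure D4:**
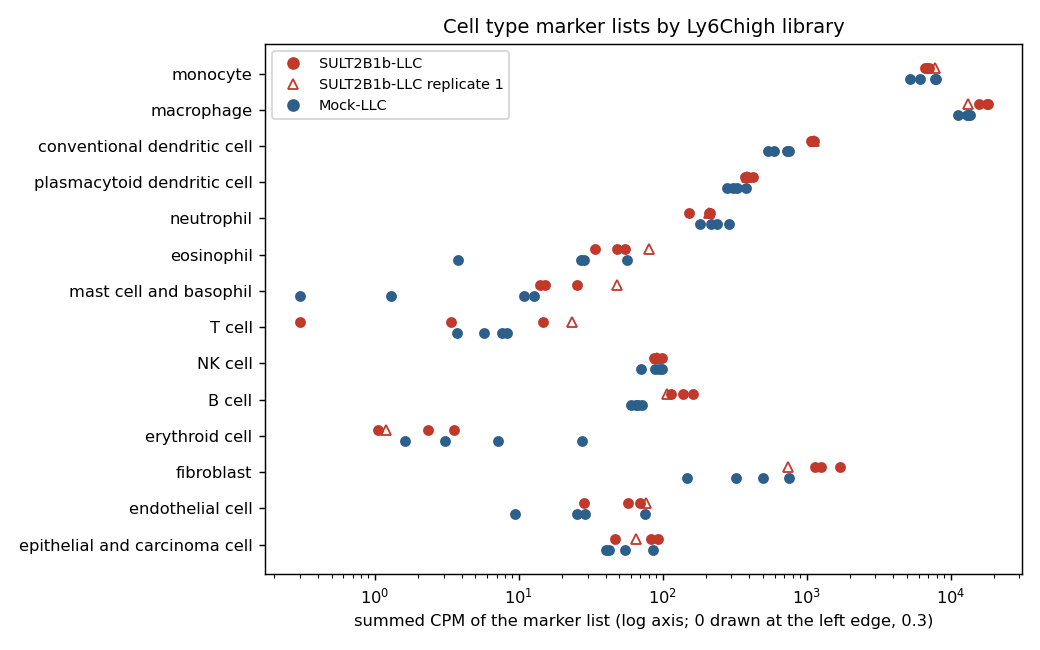
Summed CPM of 14 cell type marker lists (horizontal, log axis) in each Ly6Chigh library, with SULT2B1b-LLC drawn above Mock-LLC in each row and SULT2B1b-LLC replicate 1 as an open triangle. The groups separate for conventional dendritic cell markers (1077 to 1130 against 539 to 751 CPM), B cell markers and mast cell and basophil markers, and overlap for monocyte markers. By single gene, only Naaa among the dendritic cell markers and Ighm among the B cell markers separate, and no mast cell or basophil marker does.

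Among genes that were lower in SULT2B1b tumours, Spp1, Fn1 and Vegfa are known for roles in matrix and vessel growth. Spp1 (chromosome 5, 104435118 to 104441050), which encodes the secreted matrix protein osteopontin, stood at 288, 763, 772 and 887 CPM in SULT2B1b libraries, against 1989, 2870, 2090 and 1819 CPM in Mock libraries. The groups lay far apart, and SULT2B1b replicate 1 was the lowest. Its log2 fold change was -1.69 (SE 0.31, adjusted p = 0.112), and -1.44 without that replicate (adjusted p = 0.0841). Fn1, fibronectin, stood at 2598, 2754, 3405 and 4284 CPM in SULT2B1b libraries, against 6380, 4476, 5716 and 6235 CPM in Mock libraries (log2 -0.81, SE 0.18, adjusted p = 0.173). The highest SULT2B1b library lay close under the lowest Mock library. Vegfa, which drives vessel growth, stood at 11.5, 10.7, 8.10 and 10.1 CPM in SULT2B1b libraries, against 23.4, 31.9, 38.6 and 25.3 CPM in Mock libraries (log2 -1.56, SE 0.37, adjusted p = 0.180). These 3 did not pass in the fit of the 8 libraries and passed in the 15-library fit (adjusted p = 0.00635, 0.0296 and 0.0255). Without SULT2B1b replicate 1 the call of Fn1 in that fit was lost (adjusted p = 0.0541).

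The matrix list as a whole had no lean, with 13 of 26 members positive and a median of -0.05, which was 0.02 without SULT2B1b replicate 4 and 0.01 without Mock replicate 2. Itgb3, an integrin chain that binds osteopontin and fibronectin, went against Spp1 and Fn1, with 5.56, 29.2, 8.62 and 10.4 CPM in SULT2B1b libraries, against 0, 0, 1.68 and 0.182 CPM in Mock libraries (adjusted p = 0.394). Genes of hypoxia and glycolysis were negative in 21 of 26 cases, with a median of -0.26, but 2 did not overlap with SULT2B1b below (7.69% against 2.88% of all genes), Vegfa and the oxygen sensor Egln3. Glycolytic enzymes lay between log2 -0.36 for Tpi1 and 0.17 for Hk1. Car9, a carbonic anhydrase that hypoxia induces, did not overlap in the other direction (8.36 to 17.1 against 0 to 8.30 CPM). It was 1 of 26 on the list (3.85% against 3.37% of all genes).

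Transcription factors gave 5 of 34 with no overlap and SULT2B1b below (14.7% against 2.88% of all genes), and 1 above (2.94% against 3.37%). Cebpb, a factor of inflammatory and suppressive myeloid programmes, stood at 9.14, 6.22, 8.49 and 12.3 CPM in SULT2B1b libraries, against 28.3, 77.3, 362 and 35.4 CPM in Mock libraries. The Mock values were uneven, Mock replicate 3 being far above the rest, and the log2 fold change was -3.80 (SE 0.80, adjusted p = 0.138). Mef2c stood at 84.6, 57.5, 59.4 and 73.4 CPM in SULT2B1b libraries, against 104, 105, 131 and 106.5 CPM in Mock libraries (log2 -0.70, adjusted p = 0.321). Runx2, Bhlhe40 and Hes1 were the others below, at log2 -1.86, -0.70 and -1.31, and Tfec, a factor of the Mitf family, the one above (22.9 to 49.7 against 7.48 to 12.2 CPM; log2 1.68, adjusted p = 0.173). Klf9, a Krüppel-like factor that glucocorticoids induce and that is on no list, stood at 2.78, 0.352, 1.04 and 1.88 CPM in SULT2B1b libraries, against 18.8, 13.05, 41.5 and 30.7 CPM in Mock libraries (log2 -4.16, SE 0.74, adjusted p = 0.112).

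The lower genes nearest to the threshold were Tmem170b and Btg1. Tmem170b, a membrane protein gene, stood at 24.6, 32.2, 33.4 and 24.6 CPM in SULT2B1b libraries, against 115, 103, 78.5 and 76.6 CPM in Mock libraries (log2 -1.70, SE 0.24, adjusted p = 0.0627). Btg1, an antiproliferative factor, stood at 259, 277, 232 and 231 CPM in SULT2B1b libraries, against 442, 476, 645 and 449 CPM in Mock libraries (log2 -1.01, SE 0.16, adjusted p = 0.0772). Neither group of either gene reached the other. The stress kinase Plk3, the ubiquitin ligase adaptor Spsb1, the RNA-binding protein Pcbp1 and the nuclear receptor coactivator Pnrc1 were at log2 -1.07, -1.92, -1.43 and -1.06, with adjusted p-values from 0.112 to 0.127.

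Immediate-early and stress genes were negative in 21 of 25 cases, with a median of -0.22 that ran from -0.41 without SULT2B1b replicate 4 to -0.06 without SULT2B1b replicate 1. The phosphatase Dusp5 (11.1 to 48.6 against 68.1 to 170 CPM, adjusted p = 0.209) and Fosl2 did not overlap, with SULT2B1b below (8% against 2.88% of all genes). Inflammatory cytokine and NF-kB feedback genes were negative in 19 of 26 cases, with a median of -0.31 that ran from -0.60 without SULT2B1b replicate 2 to -0.15 without SULT2B1b replicate 3. The subunit Rel had 83.0, 126, 132 and 119 CPM in SULT2B1b libraries, against 200, 149, 315 and 228 CPM in Mock libraries (log2 -0.96, adjusted p = 0.222). On the same list Il18 (49.3 to 71.1 against 26.9 to 42.8 CPM) and its inhibitor Il18bp (67.9 to 88.1 against 2.04 to 33.8 CPM) lay above, as did Il27, and Nfkb1 lay below. None of them passed. The groups did not overlap for 3 of the list with SULT2B1b above (11.5% against 3.37% of all genes) and for 2 below (7.69% against 2.88%). 

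Mitochondrially encoded transcripts took 1.95%, 2.02%, 2.26% and 1.79% of all counts in SULT2B1b libraries, against 3.45%, 4.62%, 2.40% and 4.21% in Mock libraries. The groups did not overlap, and an exact permutation test, two-sided, gave p = 0.0286, the smallest that 4 against 4 allows. Total counts, genes with a count and the share of unnamed gene models gave p = 0.286, 0.6 and 1 in the same exact test. The last is set by SULT2B1b replicate 1, whose 9.84% outweighs the rest in every regrouping, so it cannot compare the groups. The other SULT2B1b libraries held 1.27% to 1.41%, all below the Mock libraries at 1.52% to 1.77%. Of 13 mitochondrially encoded genes, 7 were tested, all of them negative with a median log2 fold change of -0.84. The groups did not overlap for 5, with SULT2B1b below (71.4% of those tested against 2.88% of all genes). The complex I subunit genes mt-Nd1 (1658 to 2062 against 2824 to 4869 CPM; log2 -0.97, SE 0.18, adjusted p = 0.112) and mt-Nd5 (log2 -0.84, adjusted p = 0.112) led. A further 5 of the 13, among them mt-Co2 and mt-Atp6, are listed at 0 in all 8 libraries, so the share covers a part of the mitochondrial RNA. The mitochondrial share reports RNA quality as well as cell state, and its part in other differences was not tested.

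In the remaining 5 lists no member passed in either edgeR fit (6, 5, 3, 1 and 0 at an unadjusted p under 0.05, in the order given here). In the 15-library fit without SULT2B1b replicate 1, 4 of 32 lysosome and phagocytosis genes and 1 of 25 genes of T cell suppression passed, all higher. Among all 14170 genes of that fit 198 passed higher and 150 lower. Of 32 lysosome and phagocytosis genes, 1 did not overlap (3.12% against 3.37% of all genes), the protease Ctsc (2894 to 4768 against 2456 to 2829 CPM), and 5 did not without SULT2B1b replicate 1 (15.6% against 6.2%). Of 25 genes of T cell suppression, 1 did not overlap below, the ectonucleotidase Nt5e (24.6 to 50.1 against 55.4 to 174 CPM), and 1 above, Trem2. These shares, 4% each, lie near the 2.88% and 3.37% of all genes. Arg1, Cd274 and Nos2 were at log2 -0.24, 0.35 and 0.27 with overlap. Of 16 dendritic cell maturation genes, Cd80 and Icosl did not overlap with SULT2B1b below (12.5% against 2.88% of all genes). Cd40 did not overlap with SULT2B1b above (6.25% against 3.37%), and Ccr7 overlapped (12.7 to 58.8 against 54.5 to 143 CPM). For 12 chemokine receptors the groups overlapped in every case. Cell cycle genes had a median of 0.64 over 30, and of 0.38 without Mock replicate 1. None of them had an unadjusted p under 0.05, and 2 did not overlap, Rrm2 and Stmn1, both above (6.67% against 3.37%).

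Whether the tumour type acted differently on the 2 sorted populations was tested as an interaction over all 15 libraries, where 2 of 13800 genes passed (0.0145%). Both are lost (0 genes called) where the tumour is a block in the fit, and by limma-voom. For Alox15 the fitted log2 fold change was 6.36 in Ly6Chigh and 0.70 in Ly6Clow cells, a difference of 5.66 (adjusted p = 0.00362). Its size rests on the 4 counts of Mock replicate 4, without which it was 9.75, so neither is a measured fold. The other was Thbs3, a thrombospondin gene outside the naming rule and given because the count is small. It had 8.74, 14.7, 13.3 and 5.54 CPM in SULT2B1b Ly6Chigh libraries and 0 in all 4 Mock Ly6Chigh libraries, at least 133-fold against a floor of 3 counts over the group, with an interaction at adjusted p = 0.0402 that no longer passed in 5 of the 8 fits that leave out 1 Ly6Chigh library. In Ly6Clow cells Thbs3 stood at 1.46 to 2.43 CPM in SULT2B1b and 1.52 to 3.13 CPM in Mock tumours. For Cxcl9, C1qa and Ly6a the interaction did not pass (adjusted p = 0.338, 0.463 and 0.678). Their log2 fold changes in the 15-library fit were 2.46, 1.06 and 1.43 in Ly6Chigh and 3.92, 0.55 and 2.09 in Ly6Clow cells. Spp1 was at -1.70 in Ly6Chigh and -3.02 in Ly6Clow cells, a difference of 1.32 (adjusted p = 0.410).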

How the data were processed

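The series holds 15 RNA-seq libraries of sorted tumour myeloid cells, and the 8 Ly6Chigh ones are reported here. Per the labels' protocols, RNA was purified on spin columns, 500 ng went into each library, and SMART-Seq v4 libraries were read single-end for 75 nt. Strand is not marked by this kit, and overlapping or antisense genes may share reads. STAR 2.5.3a, featureCounts and limma, with the builds mm10 and GRCm38 (the same assembly), are named in the submitters' processing notes; neither annotation nor counting options are stated there. The values the authors deposited are whole-number read counts by gene symbol, without normalization.

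Groups came from the labels. The test was edgeR 4.0.16 (R 4.3.3), quasi-likelihood with robust settings, on the 8 libraries, with filterByExpr (11655 of 50508 symbols kept; 20038 had no count in these libraries), TMM factors, two-sided tests and Benjamini-Hochberg adjustment over all genes tested, at a threshold of 0.05. Only the 2 groups compared entered the fit, because earlier results showed Ly6Chigh replicates to agree less than Ly6Clow ones. All adjusted p-values of genes are from edgeR. Levels are CPM on TMM-adjusted library sizes, SE is that of the log2 fold change, and 3 counts equal 0.282 to 1.15 CPM. Replicates correlated at a median r of 0.815 to 0.909 (log2 CPM + 1), and every pair differed beyond sampling noise (chi-square over degrees of freedom from 32.7 to 91.2). Alternatives were the 15-library fit, fits without SULT2B1b-LLC replicate 1 or any other library, other scalings and filters, non-robust settings, a replicate block, limma-voom (limma 3.58.1) and DESeq2 1.42.0. The code was tested on simulated counts. Gene positions are from GENCODE M21 and promoters from RefSeq (53 of 68 named genes matched); Iigp1 and Cd74 promoters are not shown.

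The members, gene lists, marker lists and tests were chosen with earlier results of these data known. Named genes were those past the threshold, the 12 of smallest p per direction without overlap whose average log2 CPM reached 3, the 8 largest changes per direction past the threshold without SULT2B1b-LLC replicate 1 (same limits), up to 2 members per direction and list at an unadjusted p under 0.05, and a set of gate and other genes (Sult2b1, Ly6c1, Ly6c2, Itgax, Itgam, H2-Ab1, Cd74, Spp1, Fn1, Vegfa, Cebpb). Further list members, Thbs3 and Gm10800 were picked after their values were seen. Some members of the lists are counted but not reported by name here.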

Additional observations from a re-analysis of the deposited data

Results flagged for a closer look

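Among 144 groups of 4 libraries examined, 11 held a library far from the other 3, and chance alone gives about 1 in 20. In Mock-LLC replicate 3, Ly6a was at 256 CPM (398 to 423 CPM in the other 3), Btg1 at 645 CPM (442 to 476), Cebpb at 362 CPM (28.3 to 77.3), Mef2c at 131 CPM (104 to 106.5) and Itgb3 at 1.68 CPM (0 to 0.182). In Mock-LLC replicate 4, Alox15 was at 0.363 CPM and at 0 in the other 3. In SULT2B1b-LLC replicate 4, Sult2b1 was at 19.2 CPM (9.50 to 10.8). In SULT2B1b-LLC replicate 2, Ly6c1 was at 35.7 CPM (13.1 to 14.2), and its reads may be shared with its close copy Ly6c2. SULT2B1b-LLC replicate 1 stood apart in Itgam, at 828 CPM (1381 to 1482), in genes with a count, at 24540 (14002 to 14888), and in the share of unnamed gene models, at 9.84% (1.27% to 1.41%).

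The effect of the tumour type on Alox15 differed between the populations, by 5.66 on the log2 scale (Ly6Chigh minus Ly6Clow; edgeR, adjusted p = 0.00362). The Mock-LLC Ly6Chigh group holds 4 counts, all in replicate 4, and without that library the fitted difference was 9.75. With the tumour as a block 0 genes were called. It was higher in all 4 SULT2B1b-LLC Ly6Chigh libraries than in all 4 Mock-LLC ones.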

How the results depend on the processing

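The number of genes past the threshold, 3 in the main setting, depended on the model. It was 223 where all 15 libraries shared the spread (123 higher, 100 lower) and 348 in that fit without SULT2B1b-LLC replicate 1, 295 by DESeq2 (161 higher, 134 lower), 52 without a filter (23 higher, 29 lower), 47 by limma-voom with quality weights (26 higher, 21 lower), 6 with a stricter filter, 5 without scaling factors, 10 at an adjusted p under 0.1 and 0 at one under 0.01. All of the larger sets hold Cxcl9, C1qa and Ly6a. With each library left out in turn the number ran from 0 to 1, with 743 to 1024 genes at an unadjusted p under 0.05. The replicate block gave 0 genes, with 763 at an unadjusted p under 0.05. Same-numbered libraries did not deviate together (r from -0.0515 to 0.0109), but with 4 libraries per group this check cannot exclude that the numbers pair the samples. For the interaction, 2 genes passed in the main setting, 1 without a filter, 0 by limma-voom (1277 at an unadjusted p under 0.05) and 0 with the replicate block of the tumour (1098), and from 1 to 28 with each library left out, 28 without Mock-LLC Ly6Chigh replicate 4. The causes were not tested. Of the named genes, Itgam turned from -0.16 to 0.01 and 0.00 (log2; 0.006 and 0.004) without SULT2B1b-LLC replicate 1, in the fits of all and of the Ly6Chigh libraries, and ran from -0.253 to 0.004 with each library left out. Over 68 named genes and 19 settings no other direction reversed. Other scalings moved the median of all genes by under 0.03 (log2). List medians kept their sign under the 3 scalings except that of chemokine receptors, 0.008, which was -0.002 without scaling. What depth and the spread between libraries (biological coefficient of variation 0.694) allow to pass is not reported here.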
